A study of Mus musculus with 21 samples.

Results

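The neuronal pentraxins are 3 genes, Nptx1, Nptx2 and Nptxr, chosen here by name from the 24984 genes of a nascent RNA count table. Nptx1 and Nptx2 encode secreted proteins and Nptxr encodes a relative anchored in the membrane. At excitatory synapses the 3 proteins form mixed complexes that hold AMPA-type glutamate receptors in clusters, and the protease ADAM17 is known to cleave the membrane-anchored one. Nptx2, also called Narp, is known as an activity-induced gene of neurons, and its protein gathers on parvalbumin interneurons, within the perineuronal net.

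Primary cortical cultures from CD1 mice were studied at day 17 in vitro by BrU-seq, in which bromouridine is built into RNA as it is made and the labelled RNA is sequenced. After 30 min with the solvent DMSO or 25 µM MM401, cultures were given 40 µM bicuculline, or sterile water as its vehicle, and collected at 1 h or 4 h, with 2 mM bromouridine in the last 30 min. Bicuculline, an antagonist of GABA-A receptors, raises network activity, and MM401 blocks the binding of the H3K4 methyltransferase MLL1 to WDR5. The comparisons ask how the genes respond to raised activity and whether that response differs when MLL1 is inhibited. There were 7 groups of 3 libraries: DMSO with bicuculline at 1 h, DMSO with bicuculline at 4 h, DMSO with water at 4 h, MM401 with bicuculline at 1 h, MM401 with bicuculline at 4 h, MM401 with water at 1 h and MM401 with water at 4 h. No allele or transgene is named in the labels, and replicates are stated to be biological and of mixed sex. DMSO with water at 1 h was not analysed here, so that in DMSO the 1 h bicuculline libraries differ from their water control in time as well as in treatment.

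One library of MM401 with water at 4 h, replicate 3, held 316741 counts, or 0.503% of the median total of the remaining libraries, and had no count of Nptx1 or Nptx2. It was left out, so that this group has 2 libraries, and the other 20 held 49886348 to 87939384 counts each. Levels are given as CPM, edgeR's depth-scaled counts, with each library total scaled by the TMM method. A gene was called when its adjusted p in edgeR's quasi-likelihood test, corrected over all 16959 genes tested, was under 0.05. TMM factors ran from 1.02 to 1.16 in the water libraries and from 0.895 to 1.03 in the bicuculline libraries, so the scaling itself moved with treatment. Marker genes of neurons were abundant, with summed levels over libraries of 4523 to 7194 CPM for 5 pan-neuronal genes, 659 to 1170 CPM for 6 excitatory genes and 1689 to 2734 CPM for 8 inhibitory genes. Astrocyte markers summed to 414 to 846 CPM, oligodendrocyte lineage markers to 113 to 159 CPM, microglial markers to 21.1 to 36.1 CPM and endothelial markers to 2.35 to 3.89 CPM. Counts of Pvalb, the parvalbumin gene, were only 6 to 30 per library, those of the endothelial marker Cldn5 0 to 3 and those of the microglial marker Tmem119 1 to 10.

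Of the 3 neuronal pentraxins, Nptx2 rose 3.03-fold to 3.94-fold with bicuculline, Nptx1 differed from water by -0.37 to 0.38 on the log2 scale, and Nptxr was listed at 0 in every library. Nptx2 was called higher in all 4 comparisons of bicuculline with water. Nptx1 was called higher in both 4 h comparisons and lower in the 1 h comparison under MM401, and these calls depended on the processing as given below. Neither gene was called in any comparison of MM401 with DMSO. Nptx1 and Nptx2 passed the filter on low counts, Nptxr did not.

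The gene Nptxr lies at chr15:79786350-79804709 on the minus strand of mouse build mm10, a span of 18360 bp. It lies wholly inside a longer gene model of the same strand, Npcd, at chr15:79786350-79834333, which runs from the start of the neighbouring gene Cbx6, a Polycomb group gene, through the end of Nptxr. All reads of Nptxr thus lie in a span that 2 gene models share. Cbx6, which lies in the other end of Npcd, was also listed at 0 in all 20 libraries. Among genes with 1 listed position, 1194 of 1194 that lie inside another gene on the same strand were at 0 in all 20 libraries. The share at 0 was 9.04% (66 of 730) for genes inside another gene on the opposite strand only and 9.85% (1848 of 18763) for genes with no overlap. Reads in spans shared on 1 strand were therefore not assigned to the inner gene in this table, and a 0 for Nptxr says nothing of its transcription.

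**Figure D1:**
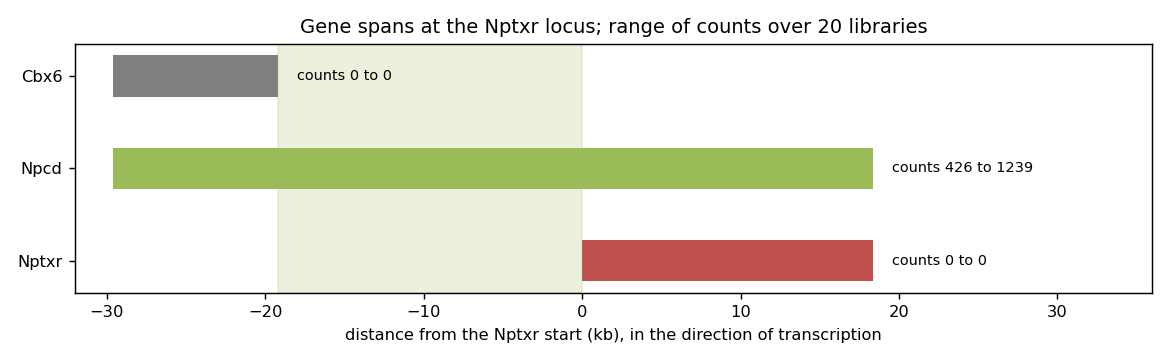
Spans of Nptxr, Npcd and Cbx6 as bars along the distance in kb from the Nptxr start, in the direction of transcription, with the lowest and highest count over 20 libraries beside each. The shaded 19.187 kb, between Cbx6 and Nptxr, is the stretch of Npcd that no inner gene covers; Nptxr and Cbx6 are at 0 and Npcd has 426 to 1239 counts.

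The stretch of Npcd that neither inner gene covers is the 19187 bp between Cbx6 and Nptxr, at chr15:79804710-79823896, before the Nptxr start. Npcd counts ran from 426 to 1239 per library. The table gives no read positions, so whether they include reads from the Nptxr span was not tested, and they were not taken as a measure of Nptxr. Npcd fell at 4 h of bicuculline in DMSO, with a log2 fold change of -0.39 (SE 0.11, edgeR adjusted p = 0.00581), and was not called at 1 h there (0.10, adjusted p = 0.464). Under MM401 it was called lower at both times, by -0.63 at 1 h (adjusted p = 9.48e-05) and by -0.45 at 4 h (adjusted p = 0.00518). Against MM401 water at 4 h, a reference chosen after seeing the data, its 1 h difference was -0.18 (SE 0.12, adjusted p = 0.268) and not called. Neither Nptx1 nor Nptx2 overlaps any other gene with 1 listed position, so their counts do not have this limit.

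The induced member, Nptx2, lies at chr5:144545886-144557478 on the plus strand and spans 11593 bp. In DMSO with water at 4 h its 3 libraries read 11.6, 12.4 and 12.8 CPM. With bicuculline in DMSO they read 47.5, 49.5 and 48.0 CPM at 1 h, and 43.0, 52.1 and 44.2 CPM at 4 h. All 6 bicuculline libraries lay above all 3 water libraries, and the 1 h and 4 h libraries overlapped. Under MM401, Nptx2 read 15.4, 15.2 and 18.3 CPM in water at 1 h and 13.4 and 15.4 CPM in water at 4 h. With bicuculline it read 53.8, 51.3 and 43.1 CPM at 1 h and 48.6, 57.1 and 60.6 CPM at 4 h. Here too, no bicuculline library overlapped a water library.

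**Figure D2:**
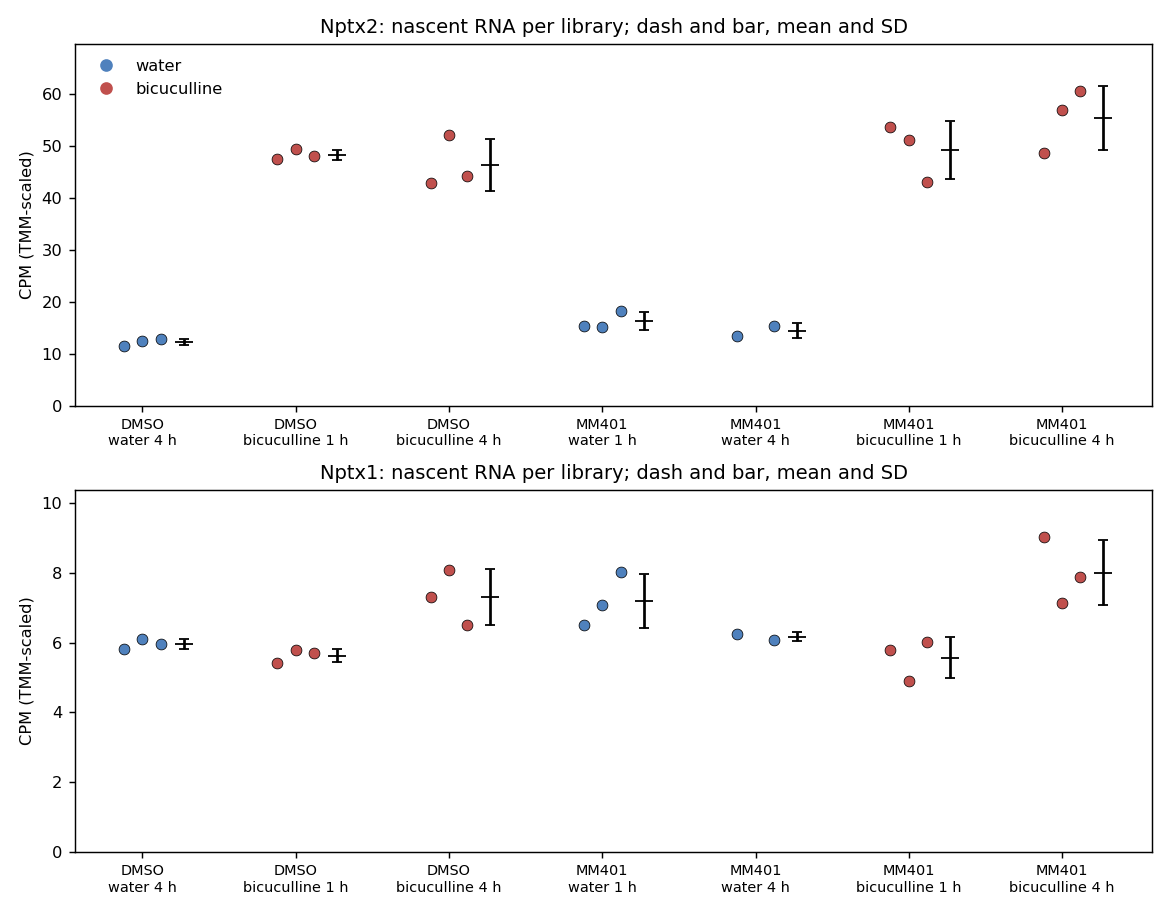
CPM of Nptx2 (top) and Nptx1 (bottom) in each of 20 libraries by group, on axes that start at 0; points are libraries and the dash with its bar is the group mean with its SD. All Nptx2 points in bicuculline lie at 43.0 CPM or above and all in water at 18.3 CPM or below, whereas Nptx1 stays between 4.90 and 9.02 CPM.

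In DMSO the rise of Nptx2 was 1.98 on the log2 scale at 1 h (SE 0.0998, 95% interval 1.77 to 2.19), which is 3.94-fold (edgeR adjusted p = 1.63e-12). At 4 h it was 1.92 (SE 0.0996, interval 1.71 to 2.13), or 3.78-fold (adjusted p = 3.07e-12). Such a call is common in these data: 44.6% of genes tested were called at 1 h (20% higher) and 49.2% at 4 h (23.7% higher). The size of the change was less common, and Nptx2 ranked 115th at 1 h and 110th at 4 h from the highest of the 16959 log2 fold changes. Both comparisons share the 3 water libraries.

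Under MM401 the rise of Nptx2 was 1.60 at 1 h against water of the same time (SE 0.0983, interval 1.39 to 1.80), or 3.03-fold (edgeR adjusted p = 3.8e-11). At 4 h it was 1.94 (SE 0.116, interval 1.70 to 2.18), or 3.84-fold (adjusted p = 5.61e-11). The background was 39.9% of genes called at 1 h (18.1% higher) and 44.6% at 4 h (23.0% higher), and Nptx2 ranked 152nd and 136th. When the 1 h libraries were set against MM401 water at 4 h instead, a reference chosen after seeing the data, the rise was 1.77 (SE 0.12, adjusted p = 1.45e-10).

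Per kb of gene, which allows levels of different genes to be compared, Nptx2 stood at 1.06 ± 0.0542 CPM per kb in DMSO with water (SD, n = 3). That is percentile 66.9 among the genes tested. With bicuculline in DMSO it stood at 4.17 ± 0.0863 at 1 h and 4.01 ± 0.429 at 4 h, at percentiles 96.2 and 95.4. In order of mean CPM, the groups ran from DMSO water at 4 h (12.3 ± 0.629) through MM401 water at 4 h (14.4 ± 1.40, n = 2) and at 1 h (16.3 ± 1.71). Then came DMSO bicuculline at 4 h (46.4 ± 4.97) and at 1 h (48.3 ± 1.00), and MM401 bicuculline at 1 h (49.4 ± 5.59) and at 4 h (55.5 ± 6.16). Of the 6 pairs of neighbours in that order, 5 were compared by a fit and none of these was called different. The remaining pair, MM401 water at 1 h and DMSO bicuculline at 4 h, was not fitted, and its libraries did not overlap.

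Marker levels moved with treatment beside this rise. The summed excitatory markers were at 659 to 831 CPM in the libraries of all 3 water groups and at 829 to 1170 CPM in those of all 4 bicuculline groups. With TMM scaling they thus met only at 829 to 831 CPM. With plain library sizes they overlapped more widely, at 762 to 864 CPM in water and 822 to 1071 CPM in bicuculline. Of these 6 genes, 3 were called higher and 1 lower in each DMSO comparison, 4 higher and 2 lower under MM401 at 1 h, and 3 higher and 1 lower under MM401 at 4 h. Inhibitory markers were called higher for 3 of 8 genes in both DMSO comparisons, for 6 of 8 under MM401 at 1 h and for 3 of 8 at 4 h. None was called lower with TMM scaling. With plain library sizes 3 were called higher and 1 lower in DMSO at 1 h, and 2 higher and 2 lower at 4 h. Under MM401 that scaling gave 3 higher and none lower at each time. With TMM, 20% and 23.7% of all genes were called higher in DMSO at 1 h and 4 h, and 18.1% and 23.0% under MM401. Of 5 pan-neuronal genes, 1 was called higher and 1 lower in DMSO at 1 h and 3 higher and 2 lower at 4 h, with summed levels of 4523 to 5673 CPM in the water libraries and 5350 to 7194 CPM in the bicuculline libraries. Under MM401, 2 of them were called higher and none lower at 1 h, and 2 higher and 2 lower at 4 h. With plain library sizes the pan-neuronal calls were 1 higher and 2 lower in DMSO at 1 h, and 2 and 2 at 4 h. Under MM401 they were 1 and 1 at 1 h, and 2 and 2 at 4 h. Markers of glia were measured as well. The summed oligodendrocyte lineage markers were at 113 to 130 CPM in the water libraries and at 139 to 159 CPM in the bicuculline libraries, without overlap; with plain library sizes they overlapped, at 115 to 148 and 132 to 158 CPM. Of these 5 genes, 2 and 3 were called higher in DMSO at 1 h and 4 h, and 1 and 2 under MM401, with none lower. Of 5 astrocyte markers, 2 were called higher and 1 lower in DMSO at 1 h and none at 4 h, and 3 were called higher under MM401 at each time, with medians of 0.41 and 0.42. The oligodendrocyte lineage genes called higher with plain library sizes were 1 and 0 in DMSO and 0 and 2 under MM401, and the astrocyte genes called higher were 2 and 0 in DMSO and 0 and 2 under MM401. The part of these shifts in the change of Nptx2 was not tested. In such bulk samples, a change in the share of a cell type and one in its labelled RNA per cell cannot be told apart.

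The paralogue Nptx1 lies at chr11:119538718-119547820 on the minus strand and spans 9103 bp. In DMSO it read 5.80, 6.10 and 5.95 CPM in water at 4 h, 5.41, 5.78 and 5.70 CPM with bicuculline at 1 h, and 7.32, 8.09 and 6.50 CPM with bicuculline at 4 h. The 4 h bicuculline libraries lay above those of both other groups. The 1 h libraries ended at 5.78 CPM, just below the lowest water library at 5.80 CPM. Under MM401, Nptx1 read 6.50, 7.08 and 8.02 CPM in water at 1 h, and 6.26 and 6.09 CPM in water at 4 h. It read 5.79, 4.90 and 6.03 CPM with bicuculline at 1 h and 9.02, 7.14 and 7.87 CPM at 4 h. The 1 h bicuculline libraries lay below, and the 4 h libraries above, the water libraries of their own time.

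At 1 h in DMSO, Nptx1 was not called, with a log2 fold change of -0.081 (SE 0.11, interval -0.31 to 0.14, edgeR adjusted p = 0.576). At 4 h it was called higher, by 0.29 (SE 0.11, interval 0.070 to 0.52, adjusted p = 0.0279), which is 1.23-fold. Under MM401 it was called lower at 1 h, by -0.37 (SE 0.11, interval -0.60 to -0.14, adjusted p = 0.00947), where 21.8% of all genes were called lower. At 4 h it was called higher, by 0.38 (SE 0.12, interval 0.12 to 0.63, adjusted p = 0.0155).

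These calls of Nptx1 were less firm than those of Nptx2. The 4 h call in DMSO was lost in 5 of 6 fits that left out 1 library (all but that without replicate 3 of DMSO bicuculline at 4 h), with log2 fold changes of 0.21 to 0.37. With plain library sizes in place of TMM, it was 0.016 and not called, and the call was also lost with only the groups compared. The 1 h call under MM401 was lost without replicate 2 of MM401 bicuculline at 1 h or replicate 3 of MM401 water at 1 h (-0.28 in both). Against MM401 water at 4 h it was -0.15 (SE 0.12, adjusted p = 0.369, with 38.9% of genes called). The 4 h call under MM401 was lost without replicate 1 of MM401 bicuculline at 4 h (0.28), or without either water library (0.38 and 0.32), and also with plain library sizes (0.30, edgeR adjusted p = 0.104). With all 21 libraries, none of the 3 calls of Nptx1 against water was made, with adjusted p of 0.118 in DMSO at 4 h and 0.0511 and 0.0517 under MM401 at 1 h and 4 h.

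Directly between 1 h and 4 h of bicuculline, Nptx1 was higher at 4 h in both pretreatments. The difference was 0.37 in DMSO (SE 0.11, edgeR adjusted p = 0.0095), where 34.2% of genes were called (19.1% higher). It was not called without replicate 2 of DMSO bicuculline at 4 h (0.29), with plain library sizes (0.29, adjusted p = 0.0996) or with all 21 libraries (0.33, adjusted p = 0.0868). Under MM401 it was 0.53 (SE 0.11, interval 0.30 to 0.75, adjusted p = 0.000679), with 33.6% of genes called (17.5% higher), and this call held in 6 of 6 fits that left out a library. Nptx2 was not called between these times in either pretreatment, with differences of -0.058 in DMSO (interval -0.25 to 0.14) and 0.17 under MM401 (interval -0.027 to 0.36, adjusted p = 0.182). In water under MM401, the difference of 4 h from 1 h was -0.17 for Nptx2 (adjusted p = 0.691) and -0.22 for Nptx1 (adjusted p = 0.597), neither called, where 0.867% of genes were. For Nptx1 the libraries of those 2 water groups did not overlap. With so few libraries this is weak evidence of a difference, and the share of genes that show it was not counted.

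In order of mean CPM, the groups for Nptx1 were MM401 bicuculline at 1 h (5.57 ± 0.595), DMSO bicuculline at 1 h (5.63 ± 0.197), DMSO water at 4 h (5.95 ± 0.148) and MM401 water at 4 h (6.17 ± 0.121, n = 2). Above them were MM401 water at 1 h (7.20 ± 0.769), DMSO bicuculline at 4 h (7.30 ± 0.797) and MM401 bicuculline at 4 h (8.01 ± 0.945). None of the neighbours in this order that were compared by a fit was called different. The order is not that of Nptx2: for Nptx1 both 1 h bicuculline groups were lowest and both 4 h groups highest. Per kb, Nptx1 stood at 0.654 ± 0.0163 CPM in DMSO with water and between 0.612 and 0.880 over the 7 group means, below Nptx2 in each group.

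**Figure D3:**
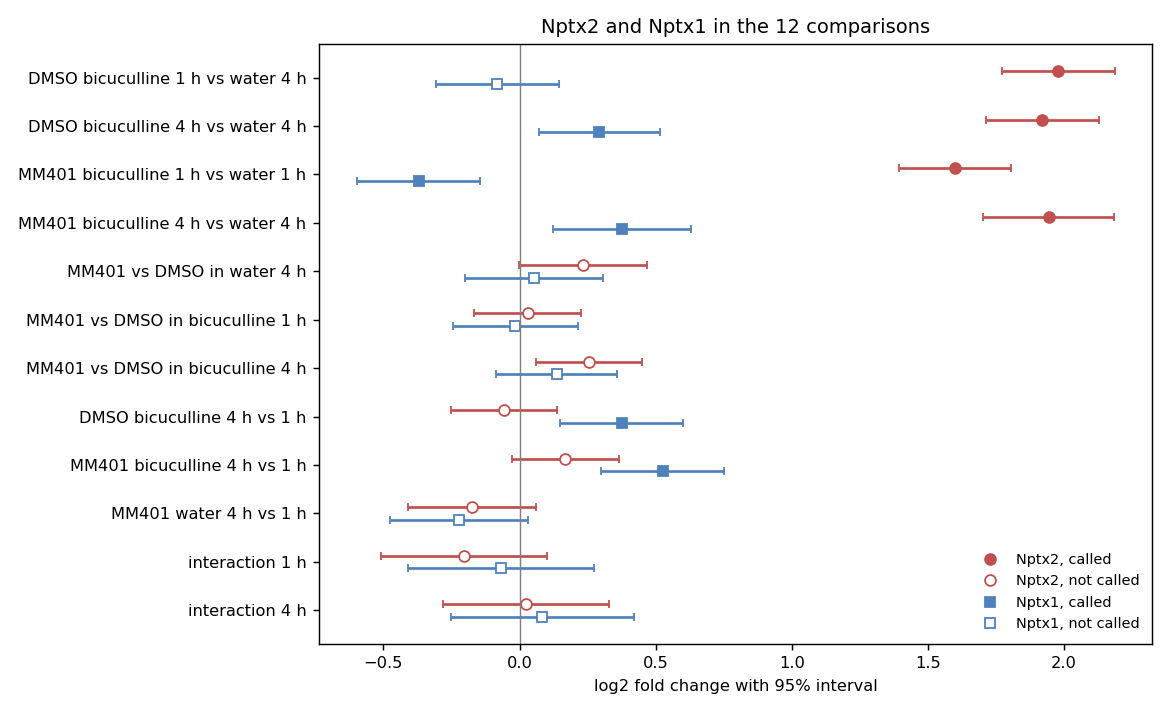
Log2 fold changes of Nptx2 (circles) and Nptx1 (squares) with 95% intervals in the 12 comparisons, filled where called by edgeR; the interactions subtract the DMSO response to bicuculline from the one under MM401, each against water at 4 h. Nptx2 lies between 1.60 and 1.98 in the 4 comparisons of bicuculline with water and within 0.26 of 0 elsewhere, and Nptx1 lies between -0.37 and 0.53 throughout.

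The pair was also compared within each library, where scaling cancels, by the log2 ratio of the Nptx2 count to the Nptx1 count with 0.5 added to each. This ratio carries the genes' lengths, which cancel in a difference between groups. In DMSO it was 2.88 ± 0.248 with bicuculline (SD, n = 6, both times) and 1.04 ± 0.0571 with water (n = 3). The difference of 1.84, or 3.59-fold, gave an exact two-sided permutation p of 0.0238 (adjusted p = 0.0238), the smallest that the 84 arrangements allow. Under MM401 the ratio was 2.97 ± 0.33 with bicuculline (n = 6) and 1.19 ± 0.1 with water (n = 5). That difference was 1.77, or 3.42-fold (exact permutation p = 0.00433, adjusted p = 0.00866), again the smallest possible, over 462 arrangements. The ratio was higher in 12 of 12 bicuculline libraries than in any of the 8 water libraries of the series.

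Expressed as counts of Nptx2 per count of Nptx1, the group means were 2.06 in DMSO water, 8.58 at 1 h and 6.36 at 4 h of bicuculline in DMSO. Under MM401 they were 2.26 and 2.33 in water at 1 h and 4 h, 8.85 at 1 h of bicuculline and 6.92 at 4 h. In DMSO the log2 ratio was lower in the 4 h than in the 1 h bicuculline libraries, with a difference of -0.43, and the times did not overlap (counts per count of 8.42 to 8.78 at 1 h and 5.86 to 6.80 at 4 h). Under MM401 the difference was -0.35, with overlap (7.14 to 10.4 at 1 h and 5.39 to 7.98 at 4 h). These tests were added after seeing the data, and with 3 libraries against 3 the exact permutation p was 0.1 in DMSO, the smallest possible, and 0.3 under MM401.

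**Figure D4:**
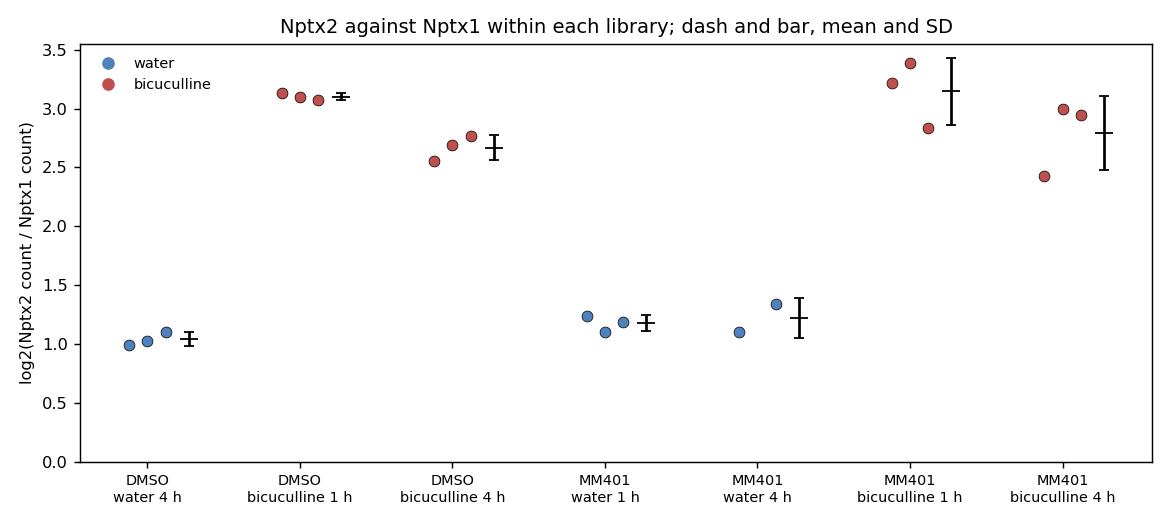
Log2 of the Nptx2 count over the Nptx1 count (0.5 added to each) in every library, by group, with the dash and bar giving the mean and SD. Water libraries lie between 0.99 and 1.34 and bicuculline libraries between 2.43 and 3.39, with no overlap.

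Neither gene was called different between MM401 and DMSO. In water at 4 h, Nptx2 differed by 0.23 from DMSO (SE 0.11, interval -0.00075 to 0.47, edgeR adjusted p = 0.387). Both MM401 libraries lay above all 3 DMSO libraries there. Such an order is weak evidence with 2 libraries against 3, and the share of genes that show it was not counted. The comparison called 0.0826% of genes (14). That count was unstable: it was 1272 without DMSO water replicate 1, and 0 to 6 without any 1 of the other 4 libraries. In bicuculline the difference was 0.029 at 1 h (interval -0.17 to 0.23, adjusted p = 0.999), where 0.00590% of genes (1) were called. At 4 h it was 0.26 (interval 0.060 to 0.45), with an unadjusted edgeR p of 0.0127 and an adjusted p of 0.639. MM401 was higher in 3 of 3 pairs of the same replicate number, and with the replicate number as a block the adjusted p was 0.498. That last comparison called 0 of 16959 genes with edgeR, although 1309 had an unadjusted p under 0.05 and DESeq2 called 7. For Nptx1 the corresponding differences were 0.052 in water, -0.015 at 1 h and 0.14 at 4 h, none of them called.

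The bicuculline response itself was compared between MM401 and DMSO by an interaction, each response taken against water at 4 h. For Nptx2 the interaction was -0.20 at 1 h (interval -0.51 to 0.10) and 0.023 at 4 h (interval -0.28 to 0.33). For Nptx1 it was -0.067 at 1 h and 0.084 at 4 h. None was called, and edgeR called 0 genes of 16959 in either interaction. At an unadjusted p under 0.05 there were 1326 genes at 1 h and 2552 at 4 h, and DESeq2 called 10 and 294. Without DMSO water replicate 1, edgeR called 97 genes at 1 h and 1551 at 4 h, and without any 1 of the other libraries 0 to 1 and 0 to 2. Neither Nptx1 nor Nptx2 was called in these fits. The intervals for Nptx2 leave room for a response under MM401 that differs from that in DMSO by up to 0.51 on the log2 scale at 1 h and 0.33 at 4 h. At 4 h this depended on the scaling: with plain library sizes the interaction was 0.23 for Nptx2 (interval -0.11 to 0.57, edgeR adjusted p = 0.365) and 0.29 for Nptx1 (interval -0.12 to 0.69, adjusted p = 0.352), neither called. The median of that interaction over all genes tested was then 0.23 as well, in place of 0.026 with TMM.

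Neighbouring genes were examined to see whether the rise of Nptx2 was shared along its chromosome. The nearest tested gene on the left, Baiap2l1, which encodes a membrane-shaping adaptor protein, lies 187.774 kb away on the other strand. It read 1.99 ± 0.172 CPM in DMSO water (SD, n = 3), 6.03 ± 0.230 CPM at 1 h and 13.5 ± 1.75 CPM at 4 h of bicuculline. Its log2 fold changes were 1.60 and 2.77 in DMSO and 1.12 and 2.20 under MM401 at 1 h and 4 h, all 4 called. Unlike Nptx2, Baiap2l1 was also called higher at 4 h than at 1 h, by 1.16 in DMSO (adjusted p = 3.75e-08) and by 1.09 under MM401 (adjusted p = 1.23e-07). On the right, Tmem130, at 178.436 kb, had log2 fold changes of 0.10 to 0.26 over the 4 comparisons and was called in none. Beside Nptx1, Endov, 27.253 kb away, was called lower in all 4, by -0.38, -0.57, -0.49 and -0.48. Gm11762, 0.809 kb beyond the start of Nptx1 on the other strand, was called only under MM401 at 1 h (-1.32). Next to Nptxr, Dnal4 was called lower in all 4 (-0.62, -0.51, -0.56 and -0.33), and D730005E14Rik was called higher under MM401 at 4 h (1.19).

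Likeness over the 7 group means was taken among 11867 genes with a mean of at least 2 CPM and names other than the Gm, Rik and LOC types. The genes most like Nptx2 were found by the mean absolute difference in log2 CPM after each gene was centred. They were Zfp459 (a zinc finger gene, difference 0.083), Pdlim3 (a PDZ and LIM domain protein, 0.084), Adcyap1 (the neuropeptide PACAP, 0.10), Nppc (C-type natriuretic peptide, 0.11) and Gadd45b (an inducible stress response gene, 0.12). The median over the genes compared was 0.89. For Nptx1 the nearest were Plekhh3 (0.033), Kcnc1 (a voltage-gated potassium channel, 0.035) and Atad3a (a mitochondrial ATPase, 0.041), with a median of 0.21. These distances describe 7 means that come from the same libraries.

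The pentraxins' partners were described through 7 lists of 46 genes, of which 41 were tested. With bicuculline in DMSO, 14 were called higher and 8 lower at 1 h, and 15 higher and 8 lower at 4 h. Under MM401, 13 were called higher and 6 lower at 1 h, and 16 higher and 9 lower at 4 h. Over all genes tested, 20% and 23.7% were called higher in DMSO at 1 h and 4 h, and 18.1% and 23.0% under MM401. The shares called lower were 24.5% and 25.5% in DMSO, and 21.8% and 21.7% under MM401. The balance of the list genes moved with plain library sizes, and turned in all comparisons but MM401 at 4 h, where it was even: 8 were called higher and 13 lower at 1 h in DMSO, 8 and 19 at 4 h, 8 and 11 under MM401 at 1 h, and 13 and 13 at 4 h. That scaling moved all genes too, with 10.8%, 10.7%, 7.52% and 16.5% of genes called higher and 40.2%, 46.4%, 38.6% and 24.4% lower in the same order. The rise of Nptx2 was reached or passed by 1 of the 41 genes at 1 h in DMSO, C1ql3, and by 2 at 4 h, Acan and C1ql3. Median log2 fold changes over all genes tested were -0.038 at 1 h and -0.024 at 4 h in DMSO, -0.0018 at 1 h and 0.016 at 4 h under MM401.

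**Figure D5:**
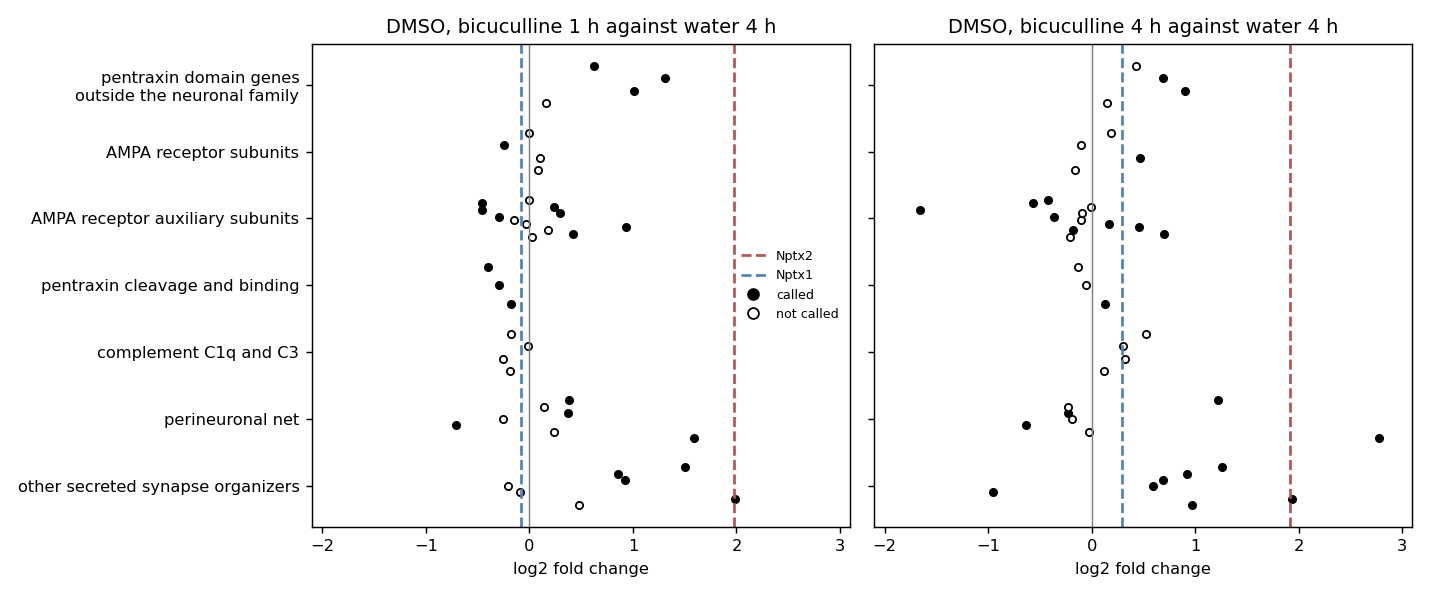
Log2 fold changes of the 41 tested pathway genes in DMSO at 1 h (left) and 4 h (right) of bicuculline against water at 4 h, by list, filled where called by edgeR; vertical positions within a list only separate the points. The dashed lines mark Nptx2 (1.98 and 1.92) and Nptx1 (-0.081 and 0.29); C1ql3 reaches the Nptx2 line in both panels and Acan passes it at 4 h.

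Other secreted synapse organizers bridge the synapse or bind receptors there. In DMSO 4 of 7 were called higher and none lower at 1 h (median 0.86), and 6 were called higher and 1 lower at 4 h (median 0.92). C1ql3, a C1q-like protein that bridges synapses, read 42.5 ± 3.86 CPM in DMSO water, 168 ± 29.6 CPM at 1 h and 163 ± 22.0 CPM at 4 h of bicuculline. Its log2 fold changes were 1.99 and 1.94 in DMSO, and 1.83 and 2.23 under MM401. Nrn1, a small membrane-linked protein that promotes neurite and synapse growth, rose by 1.51 and 1.26 in DMSO. The cerebellin Cbln1 was called lower at 4 h there (-0.95). With plain library sizes, 4 of 7 and 3 of 7 were still called higher in DMSO, with 1 lower at each time.

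Pentraxin domain genes outside the neuronal family include Ptx3, a soluble pattern-recognition protein of innate immunity, and Adgrg6, an adhesion receptor. Of 9 listed, 5 (Crp, Apcs, Ptx4, Mptx1 and Mptx2) had too few counts to test. Of the 4 tested, 3 were called higher at 1 h in DMSO and 2 at 4 h, and none lower. Ptx3 read 4.64 ± 0.964 CPM in DMSO water, 11.6 ± 0.959 CPM at 1 h and 7.53 ± 0.312 CPM at 4 h of bicuculline, with log2 fold changes of 1.31 and 0.69. Adgrg6 rose by 1.01 and 0.90 against DMSO water at 4 h. Under MM401, against water of the same time, it was called higher by 0.43 at 1 h and also called higher at 4 h (7.02 CPM in water and 15.6 CPM with bicuculline), and the 1 h call was lost with plain library sizes (0.21, edgeR adjusted p = 0.079). In MM401 water Adgrg6 itself was called lower at 4 h than at 1 h (-0.78, adjusted p = 0.00057), with libraries at 6.73 to 7.32 CPM and at 10.5 to 13.1 CPM. With plain library sizes the DMSO calls of Svep1, a matrix protein gene, at 1 h (0.43) and of Ptx3 at 4 h (0.40) were lost, which left 2 of 4 and 1 of 4 called higher.

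Of the 4 AMPA receptor subunit genes, 1 was called at each time in DMSO: Gria3 was lower at 1 h (-0.25), a call lost under RLE scaling (-0.21), and Gria2 was higher at 4 h (0.47). With plain library sizes, Gria4 was also called lower at 1 h (-0.19), and Gria1 (-0.43) and Gria3 (-0.37) at 4 h. The list's medians were 0.036 and 0.041. Among 12 auxiliary subunits of the receptor, 4 were called higher and 3 lower at 1 h in DMSO, and 3 higher and 5 lower at 4 h, with medians of 0.0093 and -0.14. Gsg1l, an auxiliary subunit that dampens receptor currents, had log2 fold changes of -0.46 at 1 h and -1.66 at 4 h, from 37.8 ± 2.44 CPM in DMSO water to 11.9 ± 1.40 CPM at 4 h. Shisa7, also an auxiliary subunit, was lower too (-0.46 and -0.56). Cacng5 rose by 0.93 and 0.46, and Cacng3 by 0.42 and 0.70, both genes of transmembrane AMPA receptor regulatory proteins; with plain library sizes the 1 h call of Cacng3 and the 4 h call of Cacng5 were lost. That scaling turned the balance at 1 h in DMSO to 1 of 12 called higher and 5 lower, and gave 1 higher and 9 lower at 4 h. Under MM401 at 4 h, 1 was called higher and 7 lower.

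Genes of pentraxin cleavage and binding are Adam17, whose protease product releases the membrane-anchored pentraxin receptor, Adam10, a related protease, and Rcn2, a calcium-binding protein known to bind pentraxins. At 1 h in DMSO 3 of 3 were called lower, with log2 fold changes of -0.40 for Rcn2, -0.29 for Adam17 and -0.18 for Adam10. At 4 h only Adam10 was called, at 0.13, and with plain library sizes its direction turned (-0.14) and 3 of 3 were called lower. Of the complement genes C1qa, C1qb, C1qc and C3, whose C1q product binds pentraxins, none was called in DMSO at either time with TMM scaling. C1qb was called lower at 1 h with plain library sizes (-0.45, edgeR adjusted p = 0.0341), and C1qc higher at 4 h under RLE scaling (0.33, adjusted p = 0.0457). Under MM401 at 4 h, 3 of 4 were called higher (2 of 4 with plain library sizes), where 2 of 4 tested microglial markers, the cells that make C1q, were also called higher. The summed microglial markers were at 31.9 to 36.1 CPM in MM401 bicuculline at 4 h and at 23.0 to 25.7 CPM in its water control, and their part in that result was not tested.

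In the perineuronal net list, 3 of 7 genes were called higher and 1 lower at 1 h in DMSO, and 2 higher and 2 lower at 4 h. These counts with plain library sizes were 1 and 1 at 1 h, and 2 and 4 at 4 h. Acan, the core proteoglycan aggrecan, read 6.78 ± 0.903 CPM in DMSO water, 20.3 ± 1.31 CPM at 1 h and 46.2 ± 3.21 CPM at 4 h of bicuculline, log2 fold changes of 1.59 and 2.77. Under MM401 the log2 fold changes of Acan were 1.00 and 2.23. Vcan, versican, rose by 0.38 and 1.22 in DMSO, and its 1 h call was lost with plain library sizes (0.18). Hapln1, the link protein of these nets, was called lower at both times in DMSO (-0.71 and -0.64) and at neither under MM401 (0.050 and -0.070). Its DMSO water libraries, at 21.4 to 27.6 CPM, lay above those of the 6 other groups, whose means were 15.3 to 17.8 CPM. Ncan, neurocan, was called higher at 1 h in DMSO (0.37), a call lost with plain library sizes (0.18), and lower at 4 h (-0.23). Under MM401, Ncan was called at neither time (0.14 and -0.15). The list's medians were 0.24 at 1 h and -0.19 at 4 h.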

How the data were processed

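The values are raw read counts per gene over the whole gene span, deposited by the authors in 1 table on build mm10, per the file headers. The submitters' processing notes name Bowtie2, featureCounts, UMI-tools, DESeq2 and deepTools; their versions, and whether duplicate reads were collapsed, are not given in the sources used here. Counts of 412 genes with several positions were kept as 1 gene.

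In R 4.3.3, edgeR 4.0.16 (limma 3.58.1) filtered genes by filterByExpr (minimum count 10, minimum total 15), scaled by TMM and fitted 20 libraries with a mean per group and robust quasi-likelihood, two-sided, with Benjamini-Hochberg adjustment over 16959 genes in each of 12 comparisons. Intervals are 95%. DESeq2 1.42.0, RLE scaling, plain library sizes, no filter, all 21 libraries, only the groups compared, a replicate block and leaving out each library were alternatives. Ratio tests used SciPy 1.17.1, adjusted over the 2 that could be run; the 4 planned with Nptxr could not, since its counts are 0. Counts were also simulated with gene means taken over all 20 libraries and 1 shared spread for every gene (16117 genes tested). Equal numbers of genes were raised and lowered in DMSO bicuculline at 1 h. Against water at 4 h, edgeR recovered 95% of 100 genes changed 2-fold and all 100 changed 4-fold, with 10 false calls. Far fewer genes changed there than were called in the data, so these figures are not error rates for the real comparisons.

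Members and lists were chosen with earlier results of these data known. Named were the 3 members, their flanking tested genes, the likest 5 (Nptx2) or 3 (Nptx1) genes and, per list, up to 2 called genes each way in the DMSO comparisons; Adam10 and the group values of Baiap2l1 were added after seeing the data. Replicate pairs differed by chi-square per degree of freedom of 6.17 to 78.5. Replicate numbers are shared between groups; only for MM401 against DMSO in bicuculline at 4 h were all 3 correlations of deviations over 0.1 (0.107 to 0.172), so there the numbers were taken as pairs from the data; what such a number marks is not in the labels.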

Additional observations from a re-analysis of the deposited data

How the results depend on the processing

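The 4 calls of Nptx2 in bicuculline against water kept their direction and call under all alternatives, leaving out a library included, with log2 fold changes from 1.38 to 2.03. With plain library sizes the median of all genes shifted by -0.19 and -0.28 in DMSO at 1 h and 4 h and by -0.21 and -0.075 under MM401, and the share of calls that were higher went from 44.9%, 48.1%, 45.4% and 51.5% to 21.2%, 18.8%, 16.3% and 40.3%. Between 4 h and 1 h of bicuculline that share was 39.2% in place of 55.7% in DMSO and 65.0% in place of 52.3% under MM401. Nptx1 then was 0.016 in DMSO at 4 h, 0.30 under MM401 at 4 h and 0.29 for 4 h against 1 h in DMSO, none called, and differences that were never called turned to -0.039 (Nptx1, MM401 against DMSO in water) and -0.026 (Nptx2, the same in bicuculline at 1 h). With all 21 libraries, Nptx1 was 0.27 in DMSO at 4 h, -0.37 and 0.39 under MM401 at 1 h and 4 h and 0.33 for 4 h against 1 h in DMSO, none called. With only the groups compared, it was 0.27 in DMSO at 4 h, and with MM401 water at 4 h as the reference -0.15 under MM401 at 1 h, neither called. The Nptx2 interaction at 4 h turned to -0.0093 under RLE scaling and -0.0096 in DESeq2. With plain library sizes it was 0.23, and that of Nptx1 0.29, where the median over all genes was 0.23.

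Counts of genes called that moved were, for MM401 against DMSO in water, 4 with plain library sizes, 0 with all 21 libraries, 0 with only the groups compared and 166 in DESeq2. In bicuculline they were 4 with the replicate block and 13 in DESeq2 at 1 h, and 7 in DESeq2 at 4 h. With all 21 libraries, 3745 and 3646 genes were called for 4 h against 1 h of bicuculline in DMSO and MM401. For water at 4 h against 1 h there were 19 with all libraries, 328 with only the groups compared and 275 in DESeq2, and for the interactions 10 and 294 in DESeq2. The replicate block changed no call of Nptx1 or Nptx2; with the numbers taken as pairs, MM401 against DMSO in bicuculline at 4 h gave 0.26 for Nptx2 and 0.13 for Nptx1.

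Leaving out 1 library at a time, counts ran from 0 to 1272 for MM401 against DMSO in water (1272 without DMSO water replicate 1), 0 to 2 for the same in bicuculline at 1 h, 14 to 140 for water at 4 h against 1 h, 0 to 97 for the interaction at 1 h and 0 to 1551 at 4 h (both highest counts again without DMSO water replicate 1). Nptx1 ranged over 0.21 to 0.37 in DMSO at 4 h, -0.44 to -0.28 and 0.28 to 0.45 under MM401 at 1 h and 4 h, 0.29 to 0.45 for 4 h against 1 h in DMSO, -0.093 to 0.071 for MM401 against DMSO in bicuculline at 1 h, and -0.15 to 0.019 and -0.010 to 0.16 for the interactions. Nptx2 ranged over -0.036 to 0.11 for MM401 against DMSO in bicuculline at 1 h and -0.073 to 0.11 for the interaction at 4 h. The log2 ratio in DMSO ranged over 1.79 to 1.91, and without a water library its exact permutation p could not go under 0.0714; at 1 h and 4 h alone it was 2.06 and 1.63, where 3 libraries against 3 cannot go under 0.1. A lone water library was assumed to vary like the other groups. Except where the construction shows it (fewer libraries, or a p the design cannot pass), the cause was not tested.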
